A study of Mus musculus with 12 samples.

Results

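FEZF2, its partner CHD4 and 6 antigens that depend on FEZF2 were followed in RNA sequencing of thymic epithelial cells (TECs) from mouse fetal thymus cultures. The 8 genes, Fezf2, Chd4, Fabp9, Resp18, Apoc3, Ttr, Maoa and Sult1c2, were chosen by symbol among 27179 genes in the count table, and all 8 were found. The choice drew on what is known of FEZF2 in the thymus and was made with earlier results of these data known. In these cultures Fezf2 and Chd4 messages were abundant in every library, and in edgeR neither they nor any of the 6 antigens passed the test after loss of Kat7 or with the KAT7 inhibitor WM-3835. Over all 18670 tested genes 14.2% passed after loss of Kat7 and 18.7% with WM-3835, so 0 of 8 is not read as sparing of the set. Fabp9 and Apoc3 passed the filter on low counts in 0 DMSO and 0 WM-3835 libraries and could hardly be called there. The higher level of Chd4 with WM-3835, a log2 difference of 0.17, was called by DESeq2 and limma-voom. Intervals were narrow for the regulators and wide for Fabp9, Apoc3 and Ttr, which had few counts and uneven libraries.

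FEZF2 is a zinc-finger transcription factor, best known from forebrain neurons, that is also made in medullary TECs. There it helps switch on genes of other tissues, so that developing T cells that react against those self-antigens can be removed. It does so for many genes that do not need AIRE, the other main regulator of such antigens in the same cells. CHD4 is the motor subunit of the chromatin-remodelling NuRD complex and a partner of FEZF2 in medullary TECs. KAT7, also called HBO1, is an enzyme that acetylates histone H3.

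All cultures were C57BL/6 thymic lobes taken from E15.5 embryos. They were kept 4 to 5 days in 1.35 mM 2'-deoxyguanosine, which removes thymocytes, then 3 days in 10 µg/mL of an antibody that activates the receptor RANK, after which TECs were sorted. There were 4 groups of 3 libraries. The control group was of a control genotype per the sample labels, with wt in the names of its count columns, and received tamoxifen. Whether it carried Cre or floxed Kat7 is not given. The knockout group was RosaCre-ERT2 Kat7 fl/fl with tamoxifen, in which Cre driven from the Rosa locus is not limited to TECs, so that other cells of the lobe can lose Kat7 too. The DMSO group was wild-type with the solvent, and the WM-3835 group was wild-type with the inhibitor, whose dose and duration are not given. Sample titles spell the compound WM-3825, and the treatment field and design give WM-3835. Controls and knockouts thus share tamoxifen, and DMSO and WM-3835 cultures share a wild-type genotype without tamoxifen.

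Libraries held 26656847 to 52368012 counts. Kat7 lay at 0.606 to 0.869 CPM, the count scaled to library size, in the knockouts, against 76.0 to 89.0 CPM in the controls. Xist, made from the inactive X chromosome of female cells, had 2.34 to 3.17 CPM in the 3 controls, then 1709, 1191 and 4.94 CPM in knockouts 1 to 3, and 846 to 2118 CPM in the other 6 libraries; Xist thus moved with group. Markers of all thymic epithelium summed to 5032 to 6119 CPM over the 12 libraries. Of these 5 genes 0 rose and 0 fell in the knockout, and 1 rose and 1 fell with WM-3835, as in DMSO against control. Thymocyte markers summed to 8.21 to 16.4 CPM, with Cd8a at 0 in the knockout and WM-3835 groups. Those of macrophages and dendritic cells summed to 39.2 to 105 CPM, where 1 rose and 1 fell in the knockout, and those of parathyroid to 2.79 to 79.7 CPM. The part of such cells in the antigen values was not tested. Replicates spread more than counting error in every group, most among the controls. The labels call them biological replicates without naming animals, and p-values measure only the spread between these libraries. In such bulk samples, fewer cells of a type and less RNA per cell cannot be told apart.

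RefSeq promoter windows on GRCm38.p6 (mm10) were available for 5 of the 8 genes, Fezf2, Chd4, Resp18, Maoa and Sult1c2. The windows of Fezf2 and Resp18 are shown to contrast the start of the regulator with that of one of its dependent antigens. Each holds the 250 bases before a start in the RefSeq table, 5′ to 3′ on the gene's strand, with CpG dinucleotides in capitals. The Fezf2 window lies at chr14:12345866-12346115 and that of Resp18 at chr1:75278416-75278665, both on the minus strand. The Resp18 window abuts the gene, whereas that of Fezf2 lies inside the gene's annotated span, before a start downstream of its outermost end.
Fezf2: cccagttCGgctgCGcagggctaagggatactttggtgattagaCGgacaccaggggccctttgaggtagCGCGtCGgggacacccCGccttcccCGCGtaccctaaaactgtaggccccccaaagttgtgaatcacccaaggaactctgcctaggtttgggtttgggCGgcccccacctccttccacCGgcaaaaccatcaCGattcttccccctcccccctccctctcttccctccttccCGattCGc
Resp18: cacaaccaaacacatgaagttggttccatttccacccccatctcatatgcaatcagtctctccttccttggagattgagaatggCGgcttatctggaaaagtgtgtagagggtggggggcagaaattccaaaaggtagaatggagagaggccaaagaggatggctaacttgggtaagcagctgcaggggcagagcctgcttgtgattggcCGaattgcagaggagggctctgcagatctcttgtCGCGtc
The Fezf2 window held 14 CpG dinucleotides at a GC content of 61.2%, and the Resp18 window 4 at 51.2%. Over 32841 promoters of 27018 genes the median was 6 CpG dinucleotides per window. The 2 annotated starts of Chd4 held 12 and 23, Maoa 11 and Sult1c2 4. None of these windows held TATAAA on either strand, which 12.4% of all windows did. Those of Resp18, of Sult1c2 and of the second Chd4 start held CCAAT on either strand, as did 33.9% of all. These are descriptions of letters, and no binding or histone mark was measured.

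Fezf2 (Entrez ID 54713, chr14:12338992-12346803, minus strand) stood at 101, 123 and 113 CPM among controls 1 to 3 and at 121, 117 and 139 CPM in knockouts 1 to 3. It stood at 138, 138 and 132 CPM with DMSO and at 133, 140 and 134 CPM with WM-3835. The DMSO and WM-3835 groups lay on top of each other, and the lowest library was control 1. The log2 change was 0.16 (SE 0.083, 95% interval -0.01 to 0.34) in the knockout, with an edgeR quasi-likelihood adjusted p of 0.212. With WM-3835 it was -0.00 (SE 0.083, interval -0.18 to 0.17, adjusted p 0.991). The inhibitor effect minus the knockout effect was -0.17 (SE 0.12, interval -0.41 to 0.08, adjusted p 0.441). Over 22 alternative settings the knockout change of Fezf2 ran from 0.094 to 0.343. Without each library in turn that change ran from 0.094 to 0.244. By mean level the groups ran DMSO, WM-3835, knockout and control, and each neighbouring pair overlapped. Per length, Fezf2 ran from 44.0 to 60.7 RPKM, the CPM per kilobase of gene length, which put it at percentile 91.4 to 93.4 of the tested genes in each group.

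Chd4 (Entrez ID 107932, chr6:125095980-125130591, plus strand) stood at 405, 405 and 370 CPM among controls and at 371, 355 and 391 CPM in the knockouts. It stood at 366, 351 and 344 CPM with DMSO and at 403, 391 and 402 CPM with WM-3835. Knockouts and controls overlapped, whereas every WM-3835 library lay above every DMSO library. The knockout log2 change was -0.08 (SE 0.065, interval -0.22 to 0.06, adjusted p 0.471). With WM-3835 it was 0.17 (SE 0.065, interval 0.04 to 0.31), with an unadjusted p of 0.0167 and an edgeR adjusted p of 0.0765. DESeq2 called this small difference at an adjusted p of 0.0410 and limma-voom at 0.0482, so its call turns on the tool. The difference between the 2 effects was 0.25 (SE 0.093, edgeR adjusted p 0.0956), and DESeq2 put it at 0.24 with an adjusted p of 0.0344. In RPKM, Chd4 ran from 53.4 to 63.0, a level per length like that of Fezf2.

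**Figure D1:**
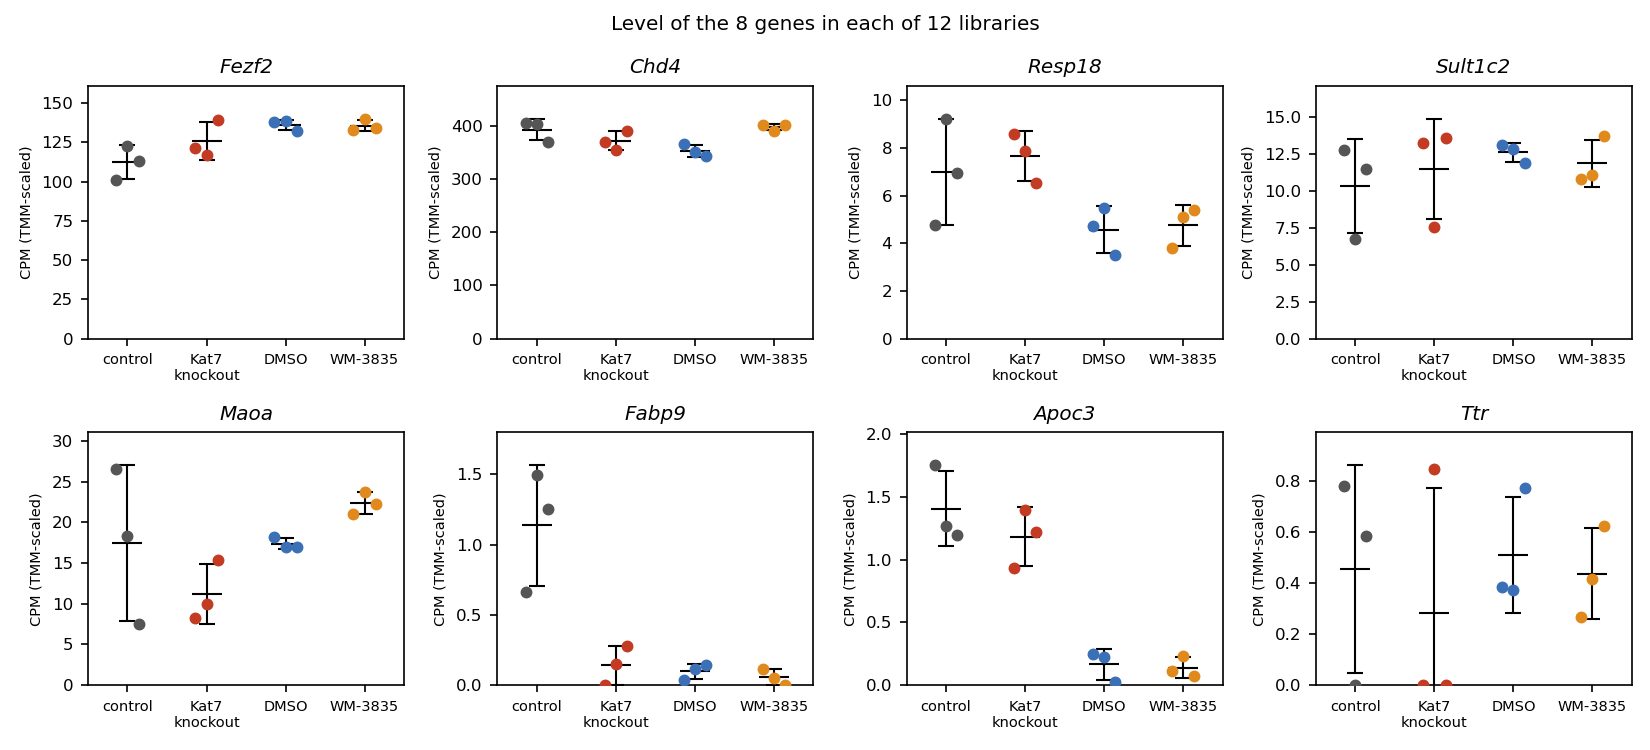
CPM of the 8 genes (y axes, TMM-scaled) in each of the 12 libraries by group (x axes). Points are libraries, long bars group means and short bars SD, cut off at 0. Fezf2 and Chd4 vary little, Fabp9 is high in the 3 controls alone, Apoc3 in controls and knockouts, and Ttr is at 0 in 3 libraries.

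Messages of the 6 antigens lay below those of the regulators per length. Group means put Sult1c2 at percentile 50.6 to 55.4 of tested genes, Resp18 at 50 to 60.0 and Maoa at 37.0 to 46.7. Apoc3 lay at percentile 13.9 to 35.1, Fabp9 at 7.46 to 31.0 and Ttr at 11.2 to 18.2. All 8 genes passed the filter on low counts, but Fabp9 did so only through the controls, and Apoc3 only through controls and knockouts. These 2 genes had to be high in those groups to be tested, so their differences from the other groups are given as values and support no count.

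Fabp9 encodes the fatty acid-binding protein of the testis (Entrez ID 21884, chr3:10193623-10197283, minus strand). It had 28, 60 and 45 counts in the controls (0.662, 1.49 and 1.25 CPM) and 0, 4 and 8 counts in the knockouts (0, 0.147 and 0.278 CPM). It had 2, 3 and 6 counts with DMSO and 5, 2 and 0 with WM-3835. Controls stood apart from all other groups, which overlapped with one another, and a count of 0 allows up to 0.0826 CPM in knockout 1 and 0.104 CPM in WM-3835 library 3. The knockout log2 difference was -2.99 (SE 1.38, interval -5.90 to -0.09), with an unadjusted p of 0.0423 and an edgeR adjusted p of 0.163, so Fabp9 did not pass the test. With WM-3835 the difference was -0.70 (SE 1.45, adjusted p 0.811). A read-through gene, Gm37389, overlaps Fabp9 on the same strand and also spans Pmp2, so the source of these few reads is uncertain.

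Apoc3 encodes an apolipoprotein that liver and gut put on triglyceride-rich particles (Entrez ID 11814, chr9:46233050-46235636, minus strand). It had 74, 51 and 43 counts in the controls (1.75, 1.27 and 1.20 CPM) and 34, 38 and 35 in the knockouts (0.937, 1.40 and 1.22 CPM). It had 13, 6 and 1 counts with DMSO (0.250, 0.224 and 0.0234 CPM) and 5, 9 and 2 with WM-3835 (0.112, 0.235 and 0.0694 CPM). The 6 tamoxifen cultures thus lay above the 6 DMSO and WM-3835 cultures, and within each pair of groups the libraries overlapped. The log2 change was -0.25 (SE 0.86, edgeR adjusted p 0.885) in the knockout and -0.23 (SE 0.96, adjusted p 0.920) with WM-3835. Intervals of -2.06 to 1.57 and of -2.25 to 1.79 leave wide room in both directions.

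Ttr encodes transthyretin, the carrier of thyroid hormone and of retinol-binding protein (Entrez ID 22139, chromosome 18, plus strand). It had 33, 0 and 21 counts in the controls, 0, 23 and 0 in the knockouts, 20, 10 and 33 with DMSO and 12, 16 and 18 with WM-3835. The message was found or missing from library to library within the tamoxifen groups, and was found in all 6 DMSO and WM-3835 libraries. The counts of 0 allow up to 0.0747 CPM in control 2, 0.0826 in knockout 1 and 0.104 in knockout 3, whereas knockout 2 had 0.847 CPM. The knockout log2 change of -0.70 (SE 1.56, edgeR adjusted p 0.818) and the WM-3835 change of -0.23 (SE 1.53, adjusted p 0.953) were within that spread. An antisense gene, Gm16090, overlaps Ttr, and the library kit does not mark strand.

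Resp18 encodes a protein of the secretory pathway of endocrine and neuroendocrine cells (Entrez ID 19711, chr1:75272197-75278415, minus strand). It stood at 4.78, 9.21 and 6.93 CPM in the controls, 8.57, 7.88 and 6.54 in the knockouts, 4.72, 5.46 and 3.51 with DMSO and 3.78, 5.09 and 5.38 with WM-3835. Knockouts overlapped with controls, and WM-3835 with DMSO libraries. The log2 change was 0.14 (SE 0.27, interval -0.44 to 0.71, edgeR adjusted p 0.796) in the knockout, and without control 1 it was -0.06. With WM-3835 it was 0.06 (SE 0.28, interval -0.52 to 0.64, adjusted p 0.934). An antisense gene, Gm28902, overlaps Resp18, so its reads cannot be told apart from those of that gene.

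Sult1c2 encodes a cytosolic sulfotransferase (Entrez ID 69083, chr17:53829637-53845958, minus strand). It stood at 12.8, 6.75 and 11.5 CPM in the controls, 13.3, 7.55 and 13.6 in the knockouts, 13.1, 12.9 and 11.9 with DMSO and 10.8, 11.1 and 13.7 with WM-3835. Control 2 and knockout 2 were low, and the other 10 libraries lay between 10.8 and 13.7 CPM. The log2 change was 0.15 (SE 0.24, interval -0.35 to 0.66, edgeR adjusted p 0.732) in the knockout, and it was -0.07 without control 2. With WM-3835 it was -0.09 (SE 0.24, interval -0.59 to 0.41, adjusted p 0.871).

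Maoa encodes the mitochondrial monoamine oxidase A, which breaks down serotonin and noradrenaline, and lies on the X chromosome (Entrez ID 17161, chrX:16619698-16687812, plus strand). It stood at 26.5, 18.3 and 7.51 CPM in the controls and 8.29, 9.98 and 15.4 in the knockouts. It stood at 18.1, 17.0 and 17.0 CPM with DMSO and 21.1, 23.7 and 22.3 with WM-3835. Control 3 was the lowest library of all, and every WM-3835 library lay above every DMSO library. The knockout log2 difference was -0.64 (SE 0.30, interval -1.28 to -0.01), with an unadjusted p of 0.0472 and an edgeR adjusted p of 0.174. Without control 3 it was -0.99, with an adjusted p of 0.00361. With Xist as a covariate it was -0.10 (SE 0.44, adjusted p 0.941), and with knockout 3, the library low in Xist, as the only knockout it was -0.17 (SE 0.42, adjusted p 0.869). With WM-3835 the difference was 0.36 (SE 0.30, interval -0.26 to 0.99, adjusted p 0.470), and a fit of those 6 libraries alone gave 0.36 at an adjusted p of 0.0105. The inhibitor effect minus the knockout effect was 1.01 (SE 0.42, unadjusted p 0.0286, adjusted p 0.150), and without control 3 it was 1.35 (adjusted p 0.00326).

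Across the set, edgeR called 0 of the 8 genes in the knockout, where 14.2% of the 18670 tested genes were called (6.12% higher and 8.06% lower). It called 0 of 8 with WM-3835, where 18.7% of all were called (9.34% higher and 9.35% lower), and 0 of 8 for the difference between the effects, where 10.1% were (5.69% higher and 4.41% lower). Fabp9 and Apoc3 stand among these 8 but passed the filter in 0 DMSO and 0 WM-3835 libraries. With so few counts there they could hardly be called, so the counts with WM-3835 rest on the other genes. Fabp9 likewise stands among the 8 of the knockout. An unadjusted p under 0.05 was reached by Maoa in the knockout, against 27.7% of all genes, by Chd4 with WM-3835, against 29.8%, and by Chd4 and Maoa for the difference, against 23.4%. DESeq2 called 0 of the 8 in the knockout (18.2% of all genes), 1 with WM-3835 (22.6%) and 1 for the difference (13.5%). Limma-voom called 0 (13.9%), 1 (18.3%) and 0 (9.76%). With WM-3835 the libraries of both groups did not overlap for 2 genes (Chd4 and Maoa), against 46.1% of all genes. In the knockout, where 25.7% of all genes did not overlap, Fabp9 alone of the 8 did so. Its p and its gap are not counted, since it was tested only through the controls, where it is high. The median log2 change was -0.16 over the 8 genes in the knockout and -0.05 with WM-3835, and -0.01 over all tested genes in both. The medians over the 8 include Fabp9 (-2.99 in the knockout) and Apoc3 (-0.25), which were tested only through groups where they are high. No direction is read from these medians.

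**Figure D2:**
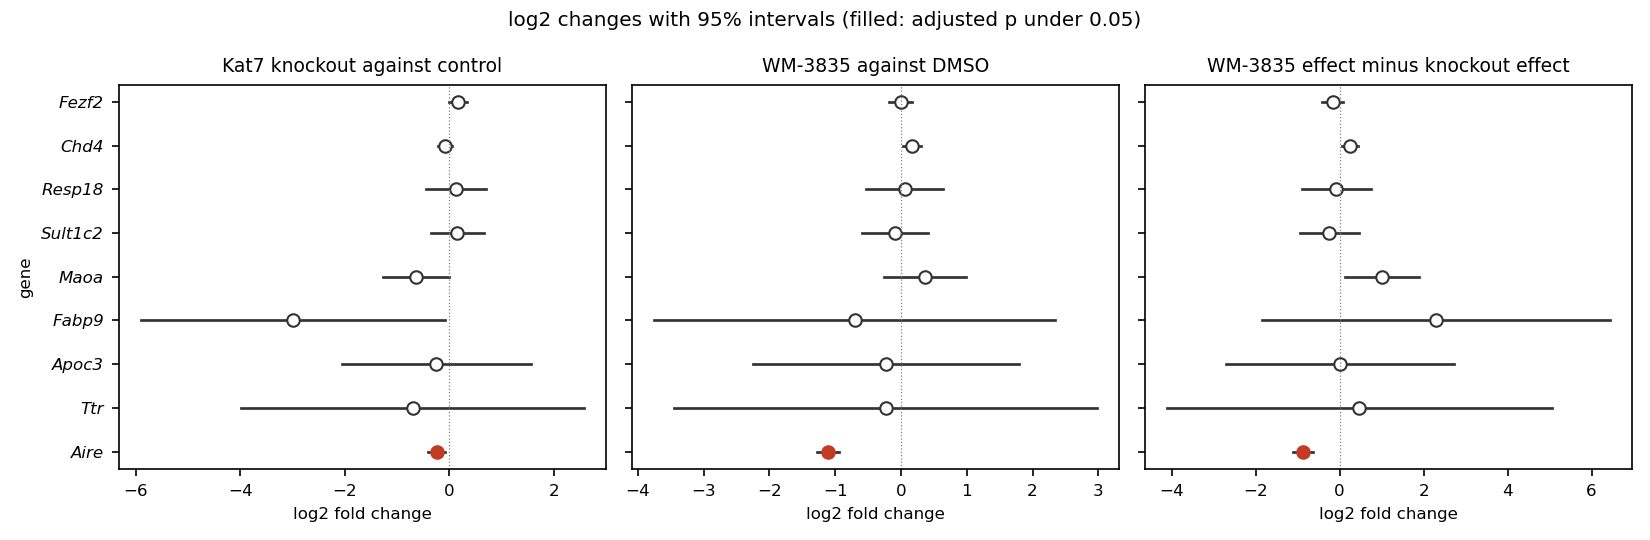
Log2 fold changes (x axes) of the 8 genes and of Aire, with 95% intervals as bars, for the knockout, for WM-3835 and for the difference between the effects; filled points passed an adjusted p of 0.05. Aire alone is filled, and the intervals of Fabp9, Apoc3 and Ttr are many times as wide as those of Fezf2 and Chd4.

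Aire, the other regulator, was read in the same libraries. Its CPM was 596 to 668 among controls, 490 to 577 among knockouts, 1123 to 1260 with DMSO and 510 to 586 with WM-3835. It fell by 0.24 on the log2 scale in the knockout (SE 0.078, edgeR adjusted p 0.0457) and by 1.11 with WM-3835 (SE 0.078, adjusted p 3.36e-08). The knockout call is frail: it was lost without control 2 (0.152), control 3 (0.0861), knockout 1 (0.111), knockout 2 (0.222) or any one DMSO or WM-3835 library (0.0522 to 0.0680), and with Xist as a covariate the change was -0.11 (adjusted p 0.664). With WM-3835 the call of Aire was kept without each library and with Xist as a covariate.

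Markers of TEC subsets moved in the same comparisons. For these markers and the gene lists below, the shares over all tested genes were 6.12% higher and 8.06% lower in the knockout. With WM-3835 they were 9.34% higher and 9.35% lower. The 8 medullary markers, Aire among them, summed to 6154 to 6565 CPM in the controls and 5614 to 5761 CPM in the knockouts, where 0 rose and 4 fell. They summed to 4259 to 4952 CPM with DMSO and 3389 to 3635 CPM with WM-3835, where 1 rose and 3 fell. Of 5 MHC class II genes of mature medullary cells, 4 fell in the knockout and 3 with WM-3835. Of 5 cortical markers 3 rose in the knockout, with sums of 7562 to 10908 CPM in the controls and 9855 to 11911 CPM in the knockouts. With WM-3835 4 of the 5 fell, from 11849 to 13000 CPM in sum with DMSO to 6146 to 7710 CPM. No marker of these lists was at 0 in a whole group, and their part in the values of Aire, Fezf2 and the antigens was not tested.

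The ratio of Aire to Fezf2 in RPKM, chosen after the values were seen, was 6.75 ± 0.259 (SD, n = 3) in the controls and 5.10 ± 0.203 in the knockouts. It was 10.5 ± 0.828 with DMSO and 4.89 ± 0.272 with WM-3835. On the log2 scale the ratio was lower by a difference of -0.41 in the knockout and of -1.11 with WM-3835, and the 3 libraries of each group lay apart. A two-sided exact permutation test gave p = 0.1 in both, the smallest that 20 permutations of 3 against 3 allow. The tests of Aire and of Fezf2 are separate, and an edgeR test of the change in the ratio itself was not made.

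**Figure D3:**
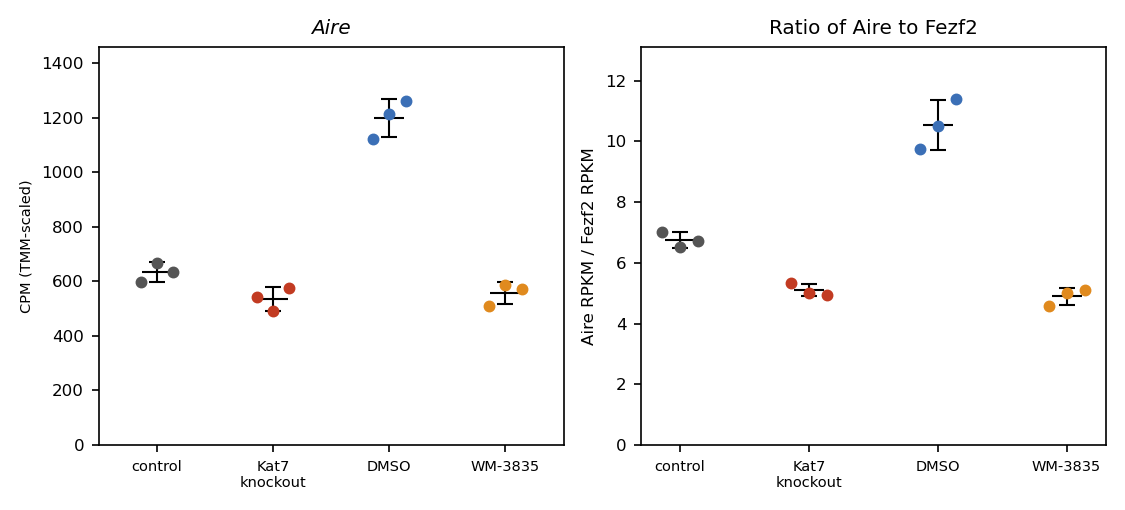
Aire in CPM (left y axis, TMM-scaled) and the ratio of Aire to Fezf2 RPKM (right y axis) in the 12 libraries by group; points are libraries, bars mean and SD. The ratio is highest with DMSO, at 9.74 to 11.4, and lies between 4.58 and 5.33 in every knockout and WM-3835 library.

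Genes whose profiles lay nearest to that of Fezf2 and Chd4 were ranked by the root mean square difference of centred log2 CPM over the 12 libraries, among 12991 genes. Nearest to Fezf2 were Mynn (0.0424), Ercc2 (0.0515), Ppil2 (0.0608), Zfyve27 (0.0637) and Ilkap (0.0676), where the spread of Fezf2 itself was 0.14. Nearest to Chd4 were Pex19 (0.0400), Pfn1 (0.0415), Cttn (0.0419), Smarca4 (0.0445) and Prcc (0.0513), where its own spread was 0.0830. None of the 10 was called by edgeR in the knockout or with WM-3835. They were picked in the same 12 libraries for profiles like those of Fezf2 or Chd4, which edgeR did not call either. Their lack of calls thus follows largely from the choice and is no separate result.

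The partners of CHD4 were followed through the 15 subunits of the NuRD complex, all of them tested. In the knockout 0 rose and 0 fell, with a median log2 change of -0.04, and 15 of 15 did not pass. With WM-3835, 1 rose and 1 fell (median 0.01). Gatad2a, a scaffold subunit that docks CHD4, rose from 93.3 ± 6.61 to 116 ± 6.14 CPM (SD, n = 3), 0.31 as a log2 change (SE 0.084, edgeR adjusted p 0.0138). Mta3, one of the MTA scaffold subunits, fell from 40.8 ± 2.51 to 32.5 ± 2.18 CPM, -0.33 as a log2 change (SE 0.10, adjusted p 0.0276). Gatad2a did not pass without DMSO 2 (adjusted p 0.0791), DMSO 3 (0.0585) or WM-3835 library 3 (0.0792). Mta3 did not pass without DMSO 1 (0.143), DMSO 3 (0.0564), WM-3835 library 1 (0.0989) or library 3 (0.122).

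Of the 9 CHD remodellers, the family of CHD4, 1 rose and 1 fell in the knockout (median 0.03), and 1 rose with WM-3835 (median -0.09). Chd6 rose from 308 ± 18.4 to 363 ± 11.5 CPM (SD, n = 3) in the knockout, 0.23 as a log2 change (SE 0.072, edgeR adjusted p 0.0369). Chd7, mutated in CHARGE syndrome, fell from 61.7 ± 11.7 to 44.7 ± 2.97 CPM, -0.46 as a log2 change (SE 0.12, adjusted p 0.0178). Chd8, a regulator of beta-catenin targets, rose with WM-3835 from 150 ± 10.8 to 185 ± 7.70 CPM, 0.30 as a log2 change (SE 0.072, adjusted p 0.00535). Chd8 kept its call without each library in turn. Chd6 did not pass without control 1 (0.0872), knockout 1 (0.101), knockout 2 (0.0675) or knockout 3 (0.0505), nor Chd7 without control 1 (0.0878), control 2 (0.0518), knockout 1 (0.0825) or knockout 2 (0.0548). With Xist as a covariate the adjusted p was 0.358 for Chd6 and 0.382 for Chd7.

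FEZF2 belongs with FEZF1 to a pair of factors that recruit TLE corepressors. Of these 6 genes 0 rose and 0 fell in the knockout (median -0.01), and 2 rose and 0 fell with WM-3835 (median 0.14). Tle1 rose from 108 ± 5.74 to 132 ± 8.60 CPM (SD, n = 3), 0.29 as a log2 change (SE 0.080, edgeR adjusted p 0.0173). Tle4 rose from 46.9 ± 0.294 to 58.0 ± 3.56 CPM, 0.30 as a log2 change (SE 0.10, adjusted p 0.0482). Tle1 did not pass without DMSO 2 (0.0849), DMSO 3 (0.0729), WM-3835 library 1 (0.105) or library 3 (0.0565). Tle4 did not pass without any one of the 6 libraries of the comparison (0.0620 to 0.167) or without knockout 2 (0.0642), and with RLE scaling its adjusted p was 0.0608. Fezf1 stood at 9.70 ± 2.72 CPM in the controls, 6.18 ± 2.23 in the knockouts, 1.31 ± 0.792 with DMSO and 1.68 ± 0.368 with WM-3835, and did not pass in either comparison. Like Apoc3 it was high in the tamoxifen cultures and low in the DMSO and WM-3835 ones.

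**Figure D4:**
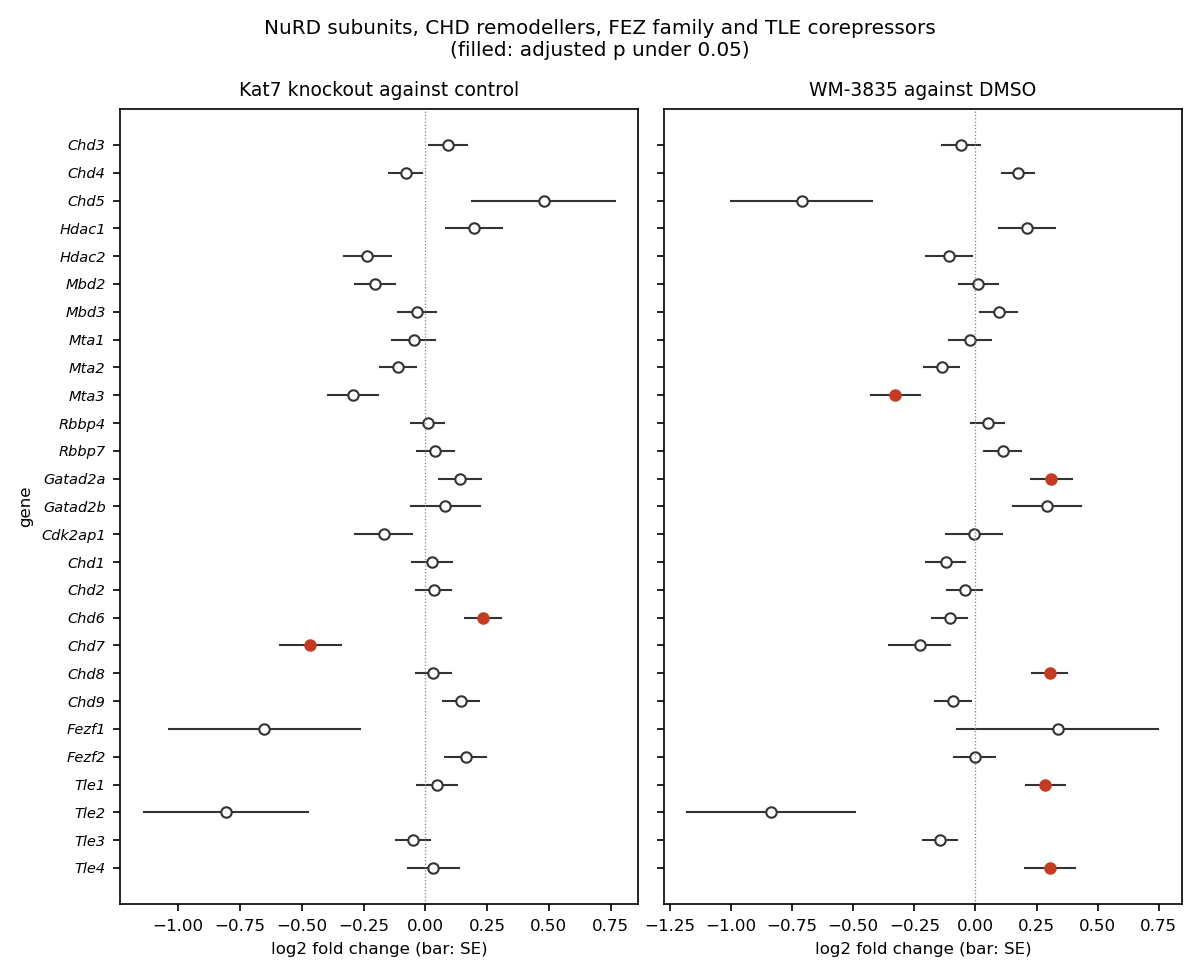
Log2 fold changes (x axes, bars are SE) of NuRD subunits, CHD remodellers, the FEZ pair and TLE corepressors in the knockout and with WM-3835; filled points passed an adjusted p of 0.05. Chd6 and Chd7 are filled in the knockout, and Mta3, Gatad2a, Chd8, Tle1 and Tle4 with WM-3835.

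Receptors and NF-kB signalling that bring on medullary regulators were described by 9 genes. In the knockout 1 rose and 1 fell (median 0.03), and with WM-3835 0 rose and 2 fell (median -0.19). Traf6, an adaptor below RANK, changed by 0.33 in the knockout (SE 0.093, edgeR adjusted p 0.0251), and Map3k14, the kinase of the non-canonical pathway, by -0.31 (SE 0.082, adjusted p 0.0163). Cd40, a receptor of the RANK family, fell with WM-3835 from 98.8 ± 7.35 to 63.6 ± 5.18 CPM (SD, n = 3), -0.64 as a log2 change (SE 0.087, adjusted p 3.89e-05). Relb, the NF-kB subunit of that pathway, fell from 254 ± 5.66 to 210 ± 9.83 CPM, -0.27 as a log2 change (SE 0.077, adjusted p 0.0173). Cd40 kept its call without each library. Relb did not pass without DMSO 1 (0.0657), DMSO 3 (0.0563) or WM-3835 library 1 (0.0974), Traf6 without control 3 (0.0678) or knockout 2 (0.102), and Map3k14 without control 3 (0.0582), knockout 2 (0.0818) or knockout 3 (0.0684). With Xist as a covariate the adjusted p was 0.273 for Traf6 and 0.174 for Map3k14.

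Relatives and chromosomal neighbours of the antigens formed the next list. Of 13 such genes, 0 rose and 5 fell in the knockout (median -1.22), and 1 rose and 4 fell with WM-3835 (median -1.23). Fabp9 sits in a cluster of fatty acid-binding genes, 7.1 kb from Fabp4 and 9.7 kb from Pmp2, with Fabp5 177.0 kb away. Pmp2, the myelin fatty acid-binding protein, fell from 37.4 ± 17.6 CPM in the controls to 7.07 ± 1.36 in the knockouts (SD, n = 3), -2.41 as a log2 change (edgeR adjusted p 2.74e-05). Fabp4, the adipocyte form, fell from 109 ± 20.7 to 39.0 ± 6.71 CPM, -1.49 as a log2 change (adjusted p 0.00012), and with Xist as a covariate -1.22 (adjusted p 0.0650). Fabp5, the epidermal form, fell from 185 ± 15.4 to 115 ± 8.53 CPM, -0.68 as a log2 change (adjusted p 0.000255). Fabp9, with 133 counts over the controls and 12 over the knockouts, did not pass. It was tested only through the controls, where it is high, so its direction is not read beside those of its neighbours. The read-through gene Gm37389, which spans Fabp9 and Pmp2, also leaves the source of its reads uncertain.

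With WM-3835 this cluster did not move one way. Pmp2 fell from 1.68 ± 0.292 to 0.552 ± 0.224 CPM (SD, n = 3), -1.56 as a log2 change (edgeR adjusted p 0.00444), a call lost in limma-voom (0.440). Fabp5 rose from 90.4 ± 15.1 to 113 ± 5.73 CPM, 0.32 as a log2 change (adjusted p 0.0352), a call lost without DMSO 1 (0.214), DMSO 3 (0.0989) or any one WM-3835 library (0.0541 to 0.142) and with upper-quartile scaling (0.0850). The effects of inhibitor and knockout on Fabp5 differed by 1.00 (adjusted p 0.000181). Fibroblast markers moved with the knockout difference: 6 of them summed to 93.4 to 137 CPM in the controls and 41.7 to 52.5 CPM in the knockouts, 3 of 6 fell, and none was at 0 in a whole group. The 4 endothelial markers summed to 8.42 to 20.4 CPM in the controls and 6.20 to 10.6 CPM in the knockouts. Their part in the changes of the Fabp genes was not tested.

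Apoc3 lies 2.6 kb from Apoa1 and 5.2 kb from Apoa4, the genes of the main proteins of high-density lipoprotein and of gut lipoproteins. Apoa1 fell with WM-3835 from 9.25 ± 1.60 to 3.93 ± 0.964 CPM (SD, n = 3), -1.24 as a log2 change (edgeR adjusted p 0.00216). Apoa4 fell from 7.95 ± 1.72 to 3.37 ± 0.246 CPM, -1.23 as a log2 change (adjusted p 0.000832). Neither passed in the knockout, where Apoc1 and Apoc2, relatives on chromosome 7, fell by 1.43 (adjusted p 0.0324) and by 1.32 (adjusted p 0.0402) on the log2 scale. Both of those calls are frail: with Xist as a covariate the adjusted p was 0.114 for Apoc1 and 0.233 for Apoc2, and leaving out single libraries raised it to as much as 0.106 (Apoc1, knockout 3) and 0.123 (Apoc2, knockout 3). Ptprn2, whose paralogue Ptprn lies 7.7 kb from Resp18, fell with WM-3835 from 13.8 ± 0.593 to 5.87 ± 0.893 CPM, -1.24 as a log2 change (adjusted p 8.26e-05). Maob, 21.5 kb from Maoa, and Sult1c1, 115.7 kb from Sult1c2, did not pass in either comparison.

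**Figure D5:**
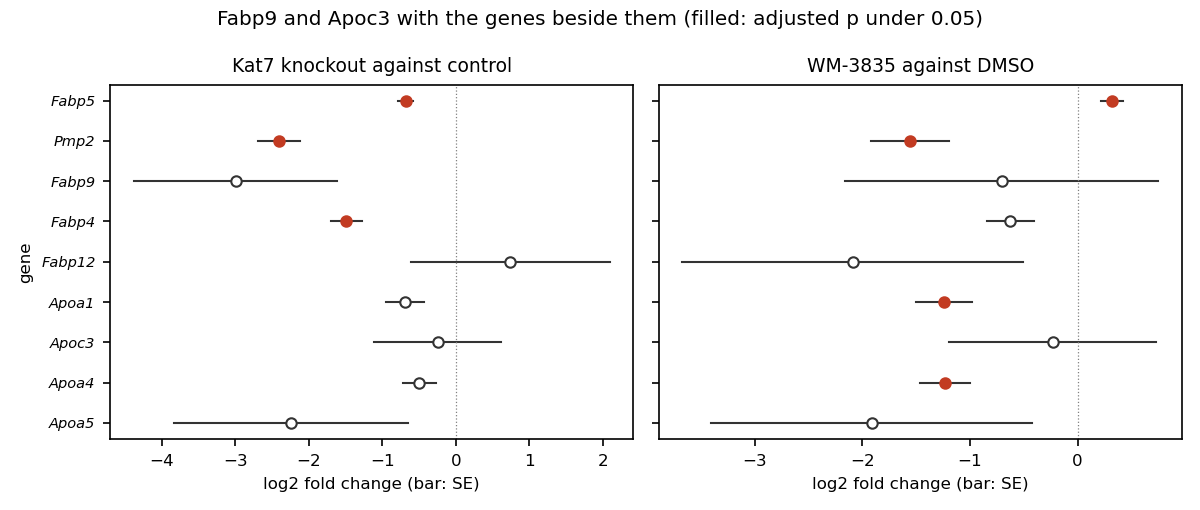
Log2 fold changes (x axes, bars are SE) of Fabp9 and Apoc3 and of the genes beside them, in chromosomal order, in the knockout and with WM-3835; filled points passed an adjusted p of 0.05. Fabp5, Pmp2 and Fabp4 are filled and negative in the knockout, Fabp5 is filled and positive with WM-3835, and Apoa1 and Apoa4 are filled on either side of Apoc3 with WM-3835.

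Antigens outside the set were read for scale. Of 5 tested AIRE-dependent antigens (7 listed, 6 in the table), 0 rose and 2 fell in the knockout, Csn2 by 1.28 and S100a8 by 1.62 on the log2 scale, and the same 2 fell with WM-3835, by 2.27 and by 2.14. With Xist as a covariate the knockout call of S100a8 was lost (adjusted p 0.142). Of 3 antigens known not to need AIRE, 0 rose and 0 fell in the knockout, and Col2a1 fell by 1.41 with WM-3835, a call lost without DMSO 3 (edgeR adjusted p 0.109), WM-3835 library 2 (0.0533) or library 3 (0.0948). Of 11 tested liver secretory proteins (15 listed, 14 in the table), the class to which Apoc3 and Ttr belong, 0 rose and 3 fell in the knockout (Fgg, Alb and Rbp4). With WM-3835 0 rose and 2 fell (Apoa1 and Apob). Over all tested genes 8.06% fell in the knockout and 9.35% with WM-3835. Alb, with 76 counts over the controls and 1 over the knockouts, passed the filter only through controls and DMSO, where it is high. Its fall is thus a value and supports no count. Fgg fell by 2.50 on the log2 scale and kept its call without each library, whereas the calls of Alb, Rbp4 and Apob were lost without single libraries, at an adjusted p of up to 0.124, 0.151 and 0.133.

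The DMSO and control groups differ in tamoxifen and in the genotype of the sample labels, though the count columns of the controls are named wt. These differences cannot be told apart, and the groups are compared as a description. Here edgeR called Fezf2 and Apoc3, against 24.6% of all tested genes, and the libraries did not overlap for these 2, Chd4 and Fabp9, against 38.9%. Of these, Apoc3 and Fabp9 passed the filter in 0 DMSO libraries and were tested only through the groups where they are high, so their values are descriptions and support no count. Fezf2 was higher with DMSO by a log2 difference of 0.28 (SE 0.083, adjusted p 0.0203), a call lost without control 1 (0.0655), DMSO 1 (0.0582) or DMSO 2 (0.0508). Apoc3 was lower by a log2 difference of -3.06 (SE 0.96, adjusted p 0.0240), a call lost without control 1 (0.0563) or without DMSO 1 (0.0547), DMSO 2 (0.0545) or DMSO 3 (0.104). Fabp9 differed by -3.52 (SE 1.42) without passing in edgeR (adjusted p 0.0761), and DESeq2, which called 27.4% of all genes, called it (0.0120). Aire was higher with DMSO by 0.92. Of the 9 receptor and NF-kB genes 7 were higher and 0 lower with DMSO (median 0.48), among them Tnfrsf11a, which encodes RANK, by 0.58. Over all tested genes 11.4% were called higher and 13.3% lower with DMSO. By the sums given above, medullary markers were lower and cortical markers higher with DMSO than in the controls. Gene by gene, 2 of the 8 medullary markers, Aire and Tnfrsf11a, were higher and 6 lower. Krt5, the largest of them, had a mean of 4879 CPM in the controls and 2935 CPM with DMSO. Of the 5 cortical markers 2 were higher and 0 lower, and Ctsl, the largest, had 4985 and 7842 CPM. Xist separated these groups entirely. The part of these markers and of Xist in the differences of Fezf2, Fabp9 and Apoc3 was not tested.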

How the data were processed

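The authors deposited raw counts per gene, with Entrez ID, symbol and gene length, per the file headers. Counting was by featureCounts on mm10, per the submitters' processing notes, with aligner, annotation and strand option not given in the sources used. Libraries were unstranded TruSeq RNA v2, read as 75-base pairs, per the labels' protocols. Symbols were missing for 1312 genes (0.657% to 0.743% of counts), which were left out of library sizes and tests.

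The deposited counts were scaled by TMM and fitted in edgeR 4.0.16 (R 4.3.3) by quasi-likelihood with 4 group means over all 12 libraries. The filter kept 18670 genes at 0.267 CPM or more in at least 3 libraries. A gene was called at a two-sided Benjamini-Hochberg adjusted p under 0.05 over these genes. RPKM used the deposited lengths, and log2 profiles a prior count of 2. SE is the unshrunk log2 coefficient over the root of F, and 95% intervals use the median F-test degrees of freedom, 18.1. Total counts were 26656847 to 52368012, and limits at 0 are 3 counts per library and cover counting error only. Pairs of replicates differed by 8.57 to 51.2 times counting error. On simulated data the fit recovered 66% of 2-fold and 68% of 4-fold changes in the knockout and 67% and 70% with WM-3835 (100 changed genes each among 18670).

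Alternatives were RLE and upper-quartile scaling, no filter, DESeq2 1.42.0, limma-voom (limma 3.58.1) with and without quality weights, a replicate block, the 6 libraries alone, each library left out, knockout 3 alone and Xist as a covariate; those for DMSO against control and for Aire and the genes of the lists were added after seeing the data. The members and gene lists were chosen with earlier results of these data known. Named genes were the 8, Kat7, Aire and Xist, up to 4 of each list with the smallest adjusted p in each comparison, and the 5 nearest profiles of Fezf2 and Chd4. Hbb-bt, Tf and Spt1 of the lists were not analysed here. Promoters are from RefSeq on GRCm38.p6.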

Additional observations from a re-analysis of the deposited data

How the results depend on the processing

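Genes called in the knockout numbered 2646, but 1180 with quality weights, 1157 in its 6 libraries alone, 704 with knockout 3 as the only knockout and 480 with Xist as a covariate. With WM-3835 they numbered 3490, but 6589 with quality weights and 6070 in 6 libraries. For the difference between the effects they numbered 1887, but 784 with knockout 3 alone and 695 with Xist. Without each library in turn these counts ran from 1773 to 2792, 2393 to 4241 and 1346 to 2232. The cause of these shifts was not tested.

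The call of Chd4 with WM-3835 appeared in DESeq2 (0.16), limma-voom (0.17), quality weights (0.17, adjusted p 0.00483) and the 6 libraries alone (0.17, adjusted p 0.0391). Members called there were then 1, 1, 1 and 2, where Maoa was the other in the 6 libraries, a fit whose filter left out Fabp9 and Apoc3. Over all genes DESeq2 called 22.6% and limma-voom 18.3%, and the last 2 settings called 6589 and 6070 genes. No excess of members is read from these counts. For the difference DESeq2 called 1 member, Chd4 at 0.24, against 13.5% of all genes. With knockout 3 alone Chd4 was at 0.00178 in the knockout and Resp18 at -0.082 (-0.067 with Xist). The WM-3835 change of Apoc3 was 0.15 in limma-voom and 0.15 with quality weights. The difference between the effects for Apoc3 was -0.017 with upper-quartile scaling, -0.017 without a filter, -0.044 with knockout 3 alone and -0.22 with Xist, and for Resp18 0.13 in both of the last settings. In DMSO against control, Chd4 was called with upper-quartile scaling (-0.18) and DESeq2 (-0.17), and Fezf2 was not called in the 6 libraries (0.26). DESeq2 called 4 members there, against 27.4% of all genes. Fabp9 and Apoc3 are among these 4, were tested only through groups where they are high, and support no count. In DMSO against control Maoa changed sign without a filter (0.023), in limma-voom (0.13), with quality weights (0.13) and with the block (0.023), and Ttr with the block (-0.061).

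Without each library in turn, members called ran from 0 to 1 in the knockout, 0 to 0 with WM-3835, 0 to 1 for the difference and 0 to 2 in DMSO against control. The 2 in DMSO against control include Apoc3, which was tested only through groups where it is high and supports no count. Changes that crossed 0 ran from -0.065 to 0.40 (Resp18) and -0.066 to 0.39 (Sult1c2) in the knockout. With WM-3835 they ran from -0.030 to 0.012 (Fezf2), -0.82 to 0.24 (Apoc3), -0.11 to 0.20 (Resp18) and -0.58 to 0.19 (Ttr). For the difference they ran from -0.35 to 0.12 (Resp18), -0.58 to 0.48 (Apoc3) and -0.19 to 6.87 (Ttr), and in DMSO against control from -0.35 to 0.44 (Maoa) and -0.40 to 0.82 (Ttr), where Fezf2 kept its sign (0.22 to 0.36).

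Deviations of same-numbered libraries had small positive correlations (0.00218 to 0.0580), against -0.0561 to 0.0168 for libraries of unlike number. The labels do not say that the numbers pair cultures, and they were not taken as pairs. With the replicate block the knockout change of Fezf2 was 0.17 and the WM-3835 change of Chd4 0.17 (adjusted p 0.0868), and no member's call changed. Fabp9, Apoc3 and Ttr have few counts and libraries that differ widely within a group.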
